A study of Mus musculus with 2 samples.

Results

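The genes described here encode the protein components of the mitochondrial ribosome in adult mouse heart. They were taken as every protein-coding gene whose GENCODE M21 symbol is Mrpl or Mrps followed by a digit. The annotation holds 78 such genes, and 77 of them were matched by gene identifier to both libraries, out of 43346 gene identifiers in the deposited tables. The remaining gene, Mrpl33, was not analysed here. Of the 77 genes, 50 encode proteins of the large subunit and 26 encode proteins of the small subunit. Subunits were assigned from the known ribosome structures rather than from the symbol alone. By that assignment Mrps18a and Mrps30 belong to the large subunit despite their symbols. Mrps36 belongs to neither, since its product is a component of the 2-oxoglutarate dehydrogenase complex.

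The heart tissue came from C57BL/6J mice aged 8 weeks, littermates of both sexes pooled. Poly(A)-selected RNA longer than 200 nucleotides was made into stranded libraries and read as paired ends of 76 bases. There was 1 group, heart, with 2 libraries labelled as biological replicates 1 and 2. They came from separate biosamples of the same donor record. Since all tissue belongs to 1 group, no conditions can be contrasted, so levels are given as a description and the only comparison across genes is between the libraries. That comparison concerns these libraries alone.

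Mitochondrial ribosomes translate the messages encoded by mitochondrial DNA, all of which specify membrane subunits of the oxidative phosphorylation complexes. Their ribosomal RNAs come from mitochondrial DNA, whereas every ribosomal protein is encoded in the nucleus, made in the cytosol and imported. Part of the protein set descends from the bacterial ribosome and part is found only in mitochondria. Heart muscle is rich in mitochondria, and inherited defects in several of these genes, MRPL3, MRPL44 and MRPS22 among them, cause cardiomyopathy in people.

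The libraries held 57464573 and 62912053 estimated counts. The members received 116300 and 158221 of them, 0.202% and 0.251%, and the least covered member had 188.63 and 211.08 counts. A library floor of 3 counts corresponds to 0.0555 and 0.0464 CPM (counts scaled to library size), which covers counting error only. Genes of mitochondrial DNA took 46.5% of TPM (a transcript level per unit of length, scaled to the same sum in every library) in replicate 1 and 30.6% in replicate 2. The 6 cardiomyocyte markers (Myh6, Actc1, Tnnt2, Tnni3, Myl2 and Ttn) had median levels of 2838 and 2950 TPM. All 7 airway and lung markers were higher in replicate 2, and together they made up 8.8e-05% of TPM in replicate 1 and 0.253% in replicate 2. Of these, Scgb3a2, Sftpa1 and Sftpb, were listed at 0 in replicate 1. All 5 red cell markers were also higher in replicate 2, with summed levels of 0.460% and 6.17% of TPM. All 6 lymphocyte and antigen presentation markers and 4 of 6 adipocyte markers were higher in replicate 2 as well. After the GC correction described below, 4 of the 6 lymphocyte and antigen presentation markers were still called. None of the 6 endothelial and fibroblast markers passed the limits used for these calls, which are given below.

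Every one of the 77 members was expressed in both libraries. Their median level was 23 TPM in replicate 1 and 28.3 TPM in replicate 2, against 6.75 and 7.58 TPM for the 11161 protein-coding genes with a mean of at least 1 TPM. The middle of the distribution was narrow, with quartiles of 12.5 and 34.8 TPM in replicate 1 and 17.3 and 59.7 TPM in replicate 2. By mean level, 12 members lay under 10 TPM, 45 between 10 and 50 TPM, 19 between 50 and 100 TPM and 1 above 100 TPM. The members summed to 2444 and 3239 TPM, 0.244% and 0.324% of each library. When genes of mitochondrial DNA were taken out of the total, the shares were 0.457% and 0.467%. In bulk tissue, fewer cells of a type and less RNA per cell cannot be told apart.

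Mrpl42, which encodes a large-subunit protein found only in mitochondria, stood far above the rest (gene at chr10:95480805-95501940, minus strand, GRCm38). It measured 348 TPM in replicate 1 and 312 TPM in replicate 2, a mean of 329.9 ± 25.9 (SD, n = 2). That was 3.16 and 2.75 times the next highest member of each library, and 15.1 and 11 times the median member. Mrpl42 alone held 14.2% and 9.62% of the summed TPM of the members. Its only annotated transcript is typed as protein-coding, so all of its TPM was placed there.

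Below it in the large subunit came several proteins of bacterial ancestry. Mrpl12, the stalk protein that recruits translation factors to the ribosome, measured 69.6 and 106 TPM. Mrpl4, which lines the exit tunnel, measured 53.7 and 112 TPM. Mrpl14, at the face that meets the small subunit, measured 46.5 and 89.97 TPM. All of these were higher in replicate 2, whereas Mrpl30 was at nearly the same level in both, 66.7 and 69.0 TPM. The mitochondria-specific Mrpl51 measured 58.6 and 87.8 TPM, most of it on a transcript annotated as non-coding, as described below.

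At the other end of the large subunit lay Mrpl1, the protein of the mobile stalk beside the tRNA exit site, at 3.13 and 2.52 TPM. Mrpl47 measured 3.78 and 2.56 TPM, Mrpl19 measured 4.12 and 2.96 TPM, and the mitochondria-specific Mrpl57 measured 3.93 and 5.99 TPM. Mrpl1 was lowest and Mrpl47 next lowest in both libraries, with overlapping ranges. Mrpl19 and Mrpl57 changed places between the libraries. The highest member exceeded the lowest 111-fold in replicate 1 and 124-fold in replicate 2. Mrpl11, which forms the base of the factor-binding stalk with Mrpl12 nearby, measured 6.27 and 6.31 TPM, so that proteins of the same ribosomal region had transcript levels of 69.6 and 6.27 TPM in replicate 1 and 106 and 6.31 TPM in replicate 2.

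In the small subunit the highest member was Mrps16, a bacterial-family protein whose human gene is mutated in a neonatal respiratory chain disorder, at 77.9 and 113 TPM. Mrps33 measured 110 and 70.3 TPM and had a lower value in replicate 2, whereas 60 of the 77 members had a higher TPM there. By counts scaled to library size, 49 of the 77 were higher, against 48.8% of all genes tested. Mrps21 measured 76.2 and 91.6 TPM, Mrps24 47.6 and 94.2 TPM, Mrps23 49.7 and 64.3 TPM, and Mrps17 45.6 and 67.1 TPM. Neighbours in this order, Mrps16 included, overlapped in range, so it is not fixed by 2 libraries. The lowest small-subunit members were Mrps22 at 6.77 and 7.22 TPM, Mrps31 at 8.56 and 6.48 TPM, Mrps10 at 9.05 and 10.6 TPM, and Mrps25 at 12.5 and 11.2 TPM. None of the small-subunit genes reached as low as Mrpl1, Mrpl47 or Mrpl19. Mrps36, the dehydrogenase component, measured 88.5 and 85.1 TPM, a mean of 86.8 ± 2.38 (SD, n = 2), which ranks 5 among the 77.

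Other members with known roles lay across the range. Mrpl58, a peptide-releasing rescue factor that became a fixed part of the large subunit, measured 36.3 and 44.1 TPM. Mrpl44, a protein with a ribonuclease III fold, measured 11.9 and 15.5 TPM. Mrps12, the decoding-centre protein, measured 12.7 and 27.5 TPM, and Mrps34 measured 35.7 and 70.3 TPM. Both of the latter were higher in replicate 2, by 1.92- and 1.76-fold in scaled counts. The Mrps18 paralogs resemble the same bacterial protein, but Mrps18a and Mrps18b sit at places without a bacterial counterpart and are counted here as mitochondria-specific. Their levels were unequal. Mrps18a in the large subunit measured 34.8 and 52.7 TPM, Mrps18b in the small subunit 34.8 and 40.4 TPM, and Mrps18c, also in the small subunit, 12.1 and 17.3 TPM. Mrps18c was below both paralogs in each library, while Mrps18a and Mrps18b overlapped. Mrps30 measured 13.6 and 17.2 TPM.

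**Figure D1:**
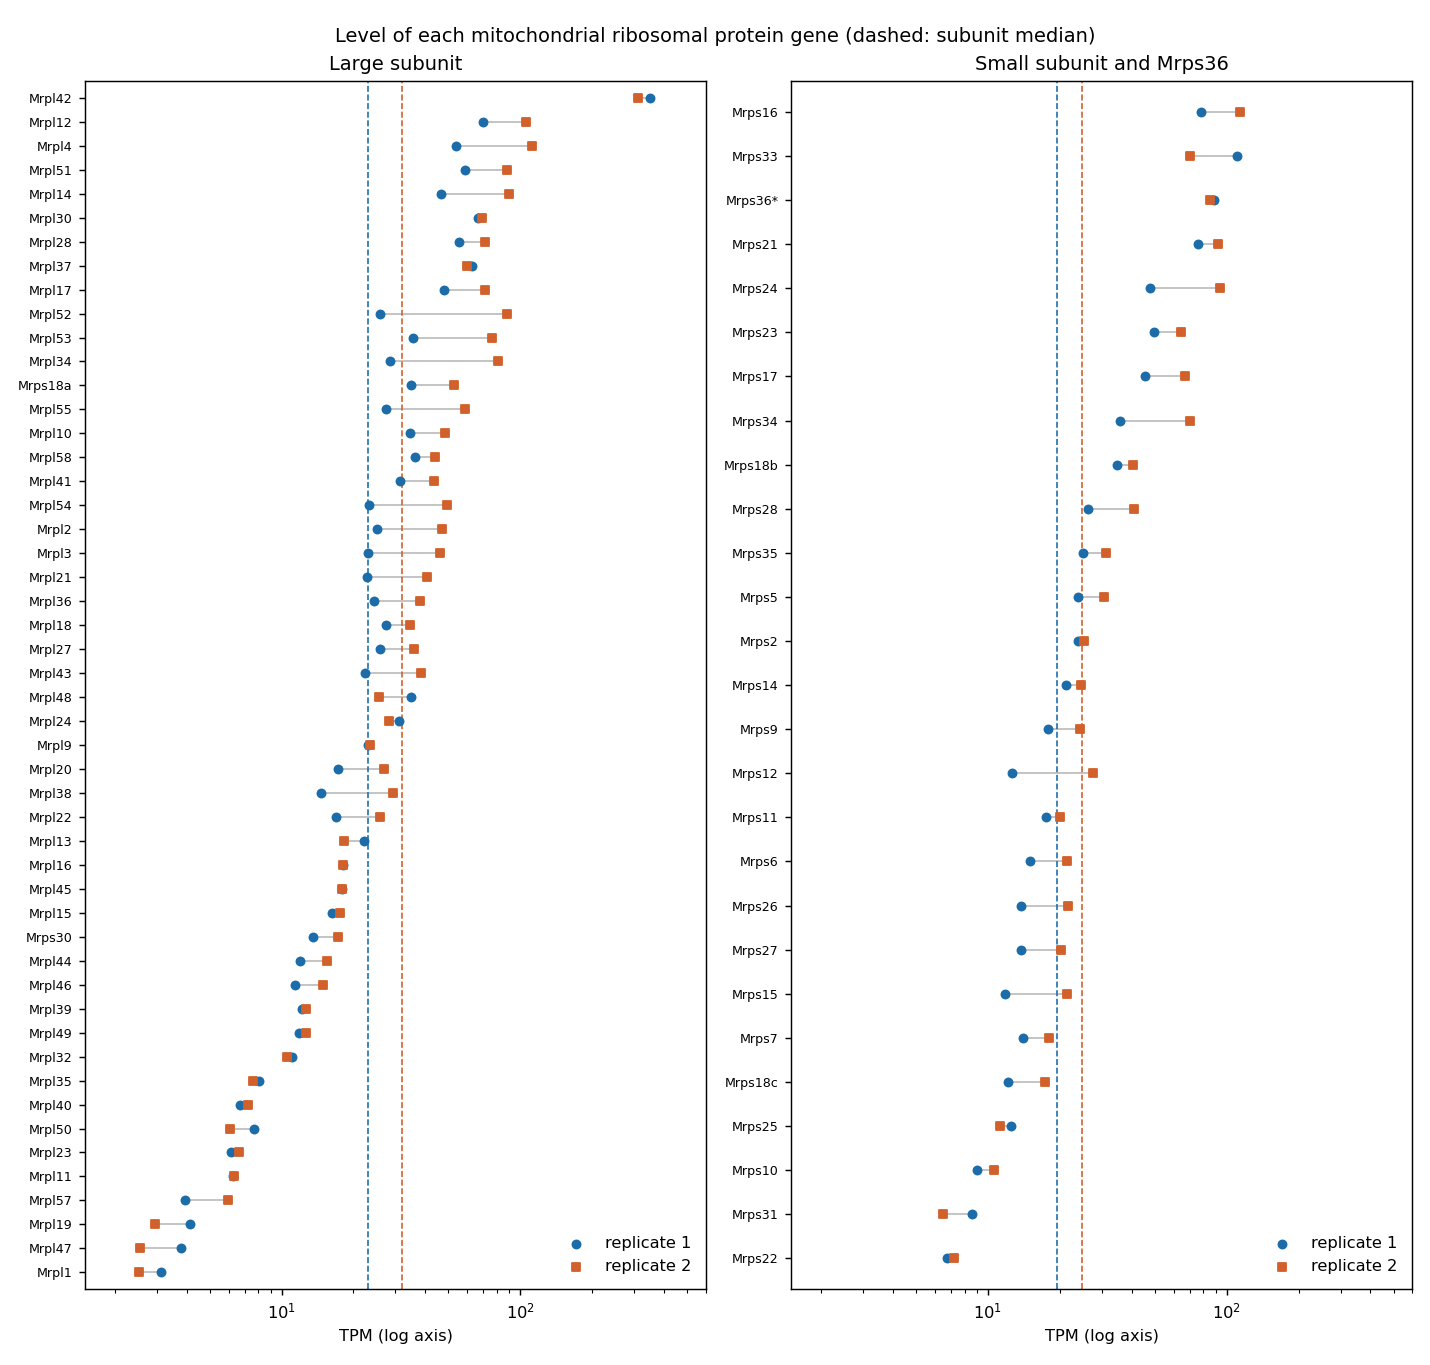
Level of each of the 77 members in TPM on a log axis, with the large subunit on the left and the small subunit and Mrps36 (starred) on the right. Circles are replicate 1, squares replicate 2 and dashed lines the median of the subunit in each library. Mrpl42 stands alone above 300 TPM, while Mrpl1, Mrpl47 and Mrpl19 lie lowest, at 2.52 to 4.12 TPM.

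The large and small subunits had similar transcript levels. The median large-subunit gene measured 23.1 TPM in replicate 1 and 31.9 TPM in replicate 2, and the median small-subunit gene 19.5 and 24.9 TPM. On the log2(TPM + 1) scale the large-subunit median exceeded the small-subunit median by 0.24 in replicate 1 and 0.34 in replicate 2, a mean of 0.29 ± 0.08 (SD, n = 2). With 2 libraries the two-sided exact sign test cannot go below p = 0.5, so it cannot pass a threshold of 0.05 here. The arithmetic means put the large subunit higher, by factors of 1.08 and 1.13, but only with Mrpl42 included. Without Mrpl42 they were 25.4 and 37.8 TPM for the large subunit and 29.4 and 38.2 TPM for the small. The geometric means of all genes put the small subunit higher, at 22.2 and 28.9 TPM against 20.6 and 26.9 TPM for the large. Of the 1300 possible pairs of a large- and a small-subunit gene, the small-subunit gene was higher in 50.8% of pairs in replicate 1 and in 50.2% in replicate 2. The distributions overlapped almost fully, and which subunit stood higher depended on the summary used. The summed large-subunit TPM was 2.09 and 2.18 times the small-subunit sum, for 50 genes against 26.

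The large subunit reached lower than the small one, and at the upper end it reached higher through Mrpl42 alone. Without Mrpl42 its highest member measured 69.6 TPM in replicate 1 and 112 TPM in replicate 2. The highest small-subunit values were 110 and 113 TPM. Large-subunit members under 10 TPM by mean level numbered 9 of 50, against 3 of 26 in the small subunit. By total TPM the medians of the ancestry classes were close. The 29 large-subunit genes of bacterial ancestry had medians of 23.1 and 34.5 TPM and the 21 mitochondria-specific ones 22.3 and 29.4 TPM. In the small subunit the 16 genes of bacterial ancestry had medians of 19.5 and 24.9 TPM and the 10 mitochondria-specific ones 19.4 and 26.4 TPM. Within each subunit, differences between the classes were smaller than the differences between libraries within a class. On coding transcripts alone, the large-subunit medians were 24.4 ± 1.80 TPM for bacterial ancestry and 17.4 ± 0.53 TPM for mitochondria-specific genes (SD, n = 2), further apart than the libraries. In the small subunit they were 18.6 ± 5.90 and 14.8 ± 1.15 TPM, within the spread.

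Across the 77 members, log2 TPM in the libraries correlated at Pearson r = 0.94 and Spearman rho = 0.94. The points are genes of the same ribosome and are not independent replicates. Of the 20 highest members in each library, 18 were shared, as were 11 of the 12 lowest. Longer members had lower TPM, with r = -0.58 in replicate 1 and -0.66 in replicate 2 between log2 transcript length and log2 TPM (n = 77 genes). TPM is divided by length, and the counts themselves had r = 0.17 and -0.05 with length. The 24 members under 800 nucleotides had median levels of 27.3 and 43.8 TPM, and the 10 members of 2000 nucleotides or more, 6.985 and 6.195 TPM.

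The promoters of the members were searched for short motifs of the factors best known for nuclear genes of mitochondria. GABPA, also called NRF2, is an ETS-family factor, NRF1 is nuclear respiratory factor 1, and YY1 is a zinc-finger factor frequent at start sites of housekeeping genes. Windows ran from 250 bases before to 50 bases after each RefSeq start site on GRCm38.p6, and 68 of the 77 members had at least 1. Some, namely Mrpl2, Mrpl48 and Mrps16, had several, and a member was counted when any of its windows held the motif. The letters searched, on both strands, were CCGGAAG for GABPA, GCATGCGC for NRF1, AAGATGGC for YY1 and TATAAA for the TATA box. No motif contains another. The GABPA letters were found in 25 of the 68 member promoters, 36.8%, against 20.4% of 8807 promoters of expressed genes and 9.93% of all 27025 promoters. YY1 letters were in 12 member promoters, 17.6%, against 5.46% and 3.19%. NRF1 letters were in 7, 10.3%, against 6.01% and 3.05%. The TATA box was in 5, 7.35%, against 8.80% and 15.7%. Letters of GABPA or NRF1 were in 29 member promoters, and 28 held none of the 4 motifs. These counts describe letters in windows and carry no test.

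Members with the GABPA letters had median levels of 27.3 and 40.7 TPM, and those without, 17.8 and 21.5 TPM. For YY1 the order was the opposite, at 15.8 and 23.9 TPM with the letters and 23.1 and 27.6 TPM without. Neither difference was tested, and GC content of the promoter, with a median of 58.5% in members, 62.3% in expressed genes and 53.3% in all windows, was not adjusted for.

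**Figure D2:**
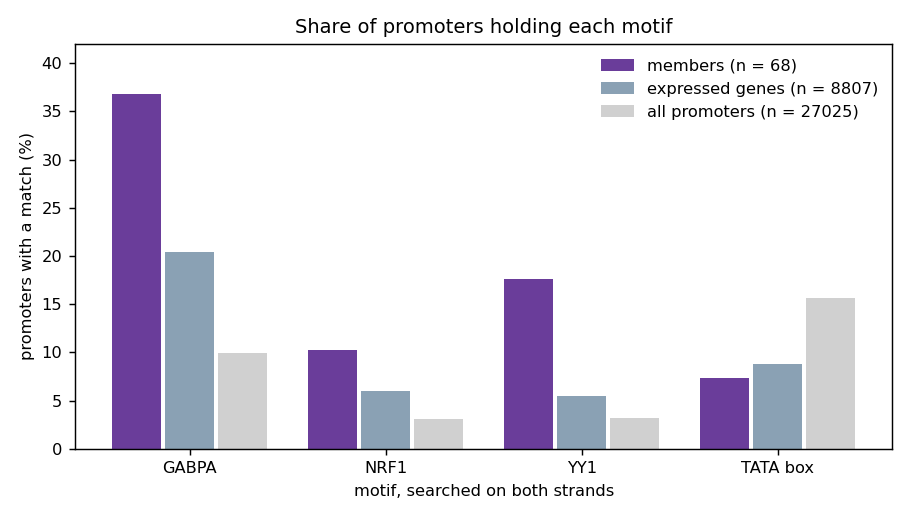
Share of promoters in percent that hold each motif on either strand, for 68 members, for 8807 promoters of expressed protein-coding genes and for all 27025 promoters. A member with several windows was counted once, on a match in any of them. GABPA letters were in 36.8% of member promoters and 9.93% of all promoters, and TATA box letters in 7.35% and 15.7%.

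The following stretches are shown because they carry the pattern or belong to the members that the results turn on. They are RefSeq sequence of GRCm38.p6, 5′ to 3′ on the strand of the named gene, with motif letters in capitals, where a match on the other strand reads as its reverse complement (CTTCCGG for GABPA, GCGCATGC for NRF1). Mrpl22, an exit-tunnel protein, has GABPA and NRF1 letters within 60 bases of its start site (chr11:58171414-58171660, plus strand). Mrpl34 and Mrpl52 were the members that differed most between the libraries, and each has GABPA letters, at 37 and 47 bases before the start (chr8:71464676-71464925 and chr14:54426659-54426908, both plus strand). Mrps27 shares the 80 bases shown with the divergent gene Ptcd2 (chr13:99344706-99344785, plus strand). The last line is a short window just inside the start site of Mrpl42, the highest member, where the YY1 letters begin 27 bases after the first transcribed base (chr10:95501907-95501930, minus strand).
Mrpl22: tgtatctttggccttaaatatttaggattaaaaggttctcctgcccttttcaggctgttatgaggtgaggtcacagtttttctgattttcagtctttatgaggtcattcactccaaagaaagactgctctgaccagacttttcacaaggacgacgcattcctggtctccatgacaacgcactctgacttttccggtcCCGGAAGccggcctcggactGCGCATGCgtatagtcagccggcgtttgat
Mrpl34: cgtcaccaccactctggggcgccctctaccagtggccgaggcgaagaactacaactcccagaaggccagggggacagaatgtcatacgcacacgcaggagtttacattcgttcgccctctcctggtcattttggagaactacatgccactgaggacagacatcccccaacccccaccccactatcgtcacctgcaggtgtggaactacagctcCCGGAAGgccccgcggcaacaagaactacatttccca
Mrpl52: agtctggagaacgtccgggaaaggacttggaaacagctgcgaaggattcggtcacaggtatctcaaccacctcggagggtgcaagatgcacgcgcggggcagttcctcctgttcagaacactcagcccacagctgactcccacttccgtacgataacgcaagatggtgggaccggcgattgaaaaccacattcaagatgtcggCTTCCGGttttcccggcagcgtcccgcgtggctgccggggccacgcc
Mrps27: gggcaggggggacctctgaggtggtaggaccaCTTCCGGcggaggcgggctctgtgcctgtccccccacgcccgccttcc
Mrpl42: attgaagcAAGATGGCgagcgcgc

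The members were spread over 17 chromosomes, with 11 on chromosome 11 and 8 on chromosome 17. A gene on the opposite strand starting within 1000 bases upstream, which makes a shared promoter region possible, was found for 18 of 77 members, 23.4%. Among the other expressed protein-coding genes the share was 10.1% of 11084. No test was made of that difference. The partner was the higher gene of the pair in 3 of 18 cases by mean TPM. The pair Mrps12 and Sars2 joins a ribosomal protein to the mitochondrial seryl-tRNA synthetase, so that both products serve mitochondrial translation. Their starts lie 172 bases apart, and Sars2 measured 6.10 and 10.2 TPM beside 12.7 and 27.5 TPM for Mrps12. The 170 bases between the RefSeq start of Mrps12 and Sars2, on the strand of Mrps12 (chr7:28741822-28741991, minus strand), hold none of the 4 motifs, and the GABPA letters of Mrps12 lie just inside its own transcript.
Mrps12: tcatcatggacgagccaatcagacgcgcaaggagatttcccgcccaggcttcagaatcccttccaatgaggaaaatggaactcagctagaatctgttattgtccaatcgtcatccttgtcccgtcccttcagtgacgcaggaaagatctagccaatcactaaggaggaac

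Some other divergent pairs were unequal and some close. Mrpl49 starts 59 bases from Fau, which encodes a ubiquitin-like protein fused to a cytosolic ribosomal protein. Fau measured 67.2 and 169 TPM against 11.8 and 12.6 TPM for Mrpl49. Mrps27 and Ptcd2 were close, at 13.7 and 20.3 TPM against 14.6 and 17.5 TPM. Mrpl40 and Hira, a histone chaperone gene, were also close, at 6.71 and 7.25 TPM against 6.74 and 7.78 TPM. Mrpl46 and Mrps11, of opposite subunits, overlap head to head on chromosome 7. Mrpl36 overlaps Ndufs6 and Mrpl47 overlaps Ndufb5, both genes of respiratory complex I, on opposite strands. The protocol is stranded, but the strand setting of the counting was not found in the sources used.

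Much of the level of some members was placed on transcripts that are not typed as protein-coding. The tables were quantified on the M4 annotation, and transcript types were taken from M21 for the 274 of 275 member transcripts that matched it. They comprised 148 protein-coding, 66 retained-intron and 14 nonsense-mediated-decay transcripts and 46 processed transcripts without a reading frame. The type of a transcript may have changed between the releases, which was not checked. Protein-coding transcripts held 83.8% and 85.5% of the members' summed TPM, and 90.2% and 90.4% of their counts. Over all protein-coding genes with a mean of at least 1 TPM, the share of TPM was 95.3% and 91.5%. In 51 members the coding share exceeded 90% in both libraries. For the 19 members with a single transcript, its type fixes this share. In 12 members, 15.6%, it was under 50% in both, against 9.999% and 10.7% of the 11161 expressed genes.

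Those 12 were Mrpl3, Mrpl15, Mrpl21, Mrpl32, Mrpl51, Mrpl58, Mrps5, Mrps11, Mrps14, Mrps25, Mrps26 and Mrps33. Mrps33 ranked 3 by mean TPM, but the 400-nucleotide retained-intron transcript Mrps33-203 held 87.1% and 84.5% of that level, leaving 14.3 and 10.9 TPM on coding transcripts. Mrpl51 had 78.4% and 84.5% on the 580-nucleotide retained-intron transcript Mrpl51-203 and 10.4 and 10.8 TPM on coding ones. Mrps26 had 94.9% and 94.2% on its retained-intron transcript and only 0.70 and 1.25 TPM on its coding transcript. Mrpl32, a protein matured by the mitochondrial AAA protease before it joins the ribosome, has a single matched transcript, typed as a target of nonsense-mediated decay, so its coding level was listed at 0.

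Mrps14 had 84.7% and 88.1% of its TPM on a decay-type transcript, and Mrps5, Mrps25, Mrpl21 and Mrps11 were led by retained-intron transcripts in both libraries. Mrpl15 was led by a processed transcript, at 55.6% and 66.5%. Short transcripts weigh more in TPM than in counts. Of the 12 members, 7 were also under 50% by coding share of counts in both libraries, 3 in 1 library and 2 in neither. Mrps25 had 75.1% and 76.3% of its counts on coding transcripts, Mrpl58 67.7% and 66.2%, and Mrpl51 58.4% and 47.7%. Ranked by coding TPM alone, Mrpl42 remained first at 329.9 ± 25.9 TPM (SD, n = 2), followed by Mrps16 at 95.7 ± 25.2 and Mrpl12 at 86.8 ± 26.1, which do not differ beyond their spread.

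**Figure D3:**
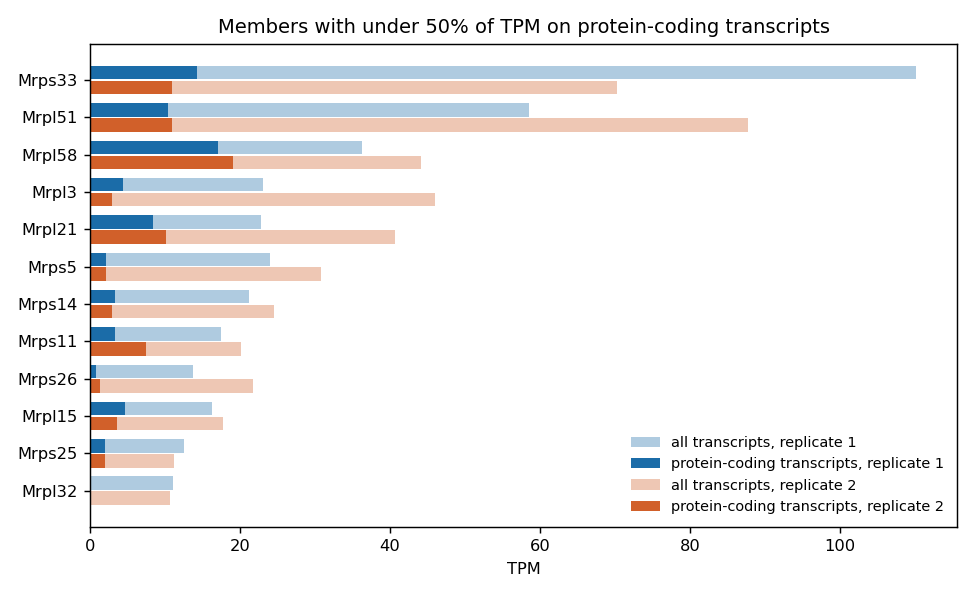
TPM of the 12 members with under 50% of their level on protein-coding transcripts. Pale bars show all transcripts, dark bars the protein-coding ones, blue replicate 1 and orange replicate 2. Mrps33 reaches 110 TPM in replicate 1 with 14.3 TPM on coding transcripts, and Mrpl32 has no coding bar.

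The leading transcript was the same in both libraries for 51 of the 58 members with 2 or more transcripts. It differed in Mrpl3, Mrpl17, Mrpl24, Mrpl55, Mrpl58, Mrps10 and Mrps18c. Mrpl3, a protein near the peptidyl transferase centre, is the clearest case. Its level was 23 TPM in replicate 1 and 46.1 TPM in replicate 2, yet its counts of 1698 and 2018 differed by a factor of 0.995 after scaling to library size (95% exact interval 0.933 to 1.06, counting error only). The 457-nucleotide transcript Mrpl3-206 held 35.8% of the gene's TPM in replicate 1 and 67.6% in replicate 2, and the effective length that divides the counts went from 1183 to 667 nucleotides. In Mrpl17 the lead passed from a decay-type to a coding transcript, and in Mrpl58 from a coding to a retained-intron transcript. In Mrpl24, Mrpl55, Mrps10 and Mrps18c it passed between coding transcripts.

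Mrpl23, another exit-tunnel protein, has its measured level divided with a processed pseudogene. Its copy Mrpl23-ps1 (chr2:74591330-74591909, GRCm38) matched the Mrpl23 transcript at 100% identity over 540 nucleotides. The deposited tables gave the gene 188.63 and 211.08 counts and the copy 1406 and 2468 counts. The copy thus held 88.2% and 92.1% of their joint counts. Mrpl23 measured 6.13 and 6.65 TPM and the copy 60.0 and 98.0 TPM. Added together they came to 66.1 and 105 TPM, which would rank 8 and 5 among the members instead of among the lowest. Reads of identical stretches cannot be assigned to either gene with certainty, so the level of Mrpl23 is uncertain between these values. In all, 35 annotated pseudogenes matched 21 members at 90% identity or more over at least 200 nucleotides, and 24 of those pseudogenes were listed at 0 counts in both libraries. For the other 20 members the copies held at most 4.05% of joint counts. Mrpl23 was singled out after its values were seen.

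Between the libraries, 2 members were called different and both were higher in replicate 2. A gene was called at a Benjamini-Hochberg adjusted p under 0.05 in an exact binomial test of counts given library size and at a fold of at least 2. Mrpl52, a mitochondria-specific protein of the large subunit, received 336 counts (25.9 TPM) in replicate 1 and 1245 (88.0 TPM) in replicate 2. It was 3.10-fold higher in replicate 2 (95% exact interval 2.75 to 3.51, adjusted exact binomial p = 6.45e-89). Mrpl34, a small bacterial-family protein of the large subunit, had 783 and 2374 counts, 28.5 and 80.6 TPM. It was 2.54-fold higher in replicate 2 (2.34 to 2.76, adjusted exact binomial p = 7.23e-127). Over all 16145 genes tested, 8.21% were called higher in replicate 2 and 3.57% lower, so 2 of 77 members is no higher a share than among all genes, and no member was called lower. Without the fold limit, 42 of 77 members were higher and 21 lower at an adjusted p under 0.05, beside 32.9% and 34.9% of all genes. Higher calls then took a larger share of the members than of all genes, and lower calls a smaller one. These intervals and p-values reflect counting error alone and not variation between animals. With 1 dispersion common to all genes, edgeR's exact test called no member in either direction, and 336 genes higher and 73 lower in all. That dispersion was estimated from these same 2 libraries, so it already holds the difference under test and this outcome is no separate check.

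By scaled counts 59 of 77 members differed by less than 1.5-fold between the libraries and 16 by 1.5- to 2-fold. The log2 quartiles of all genes tested, -0.32 and 0.32, also lay within 1.5-fold. At a fold limit of 1.5, 15 of 77 members were called higher and 3 lower, beside 15.1% and 12.2% of all genes. Expressed as log2 of replicate 2 over replicate 1, the median difference was 0.17 for all members, 0.18 for the large subunit and 0.13 for the small, against -0.01 for all genes tested. The log2 ratio was above 0 in 49 members, 63.6%, against 48.8% of all genes tested. Mrpl42 was lower in replicate 2, at 0.802 of its replicate 1 value by counts (95% exact interval 0.780 to 0.825). Mrpl47 and Mrps33 stood lowest, at 0.577 and 0.603, and neither reached the fold limit. The airway, red cell, adipocyte and lymphocyte markers listed above moved in the same direction as Mrpl52 and Mrpl34, and their part in the result was not tested.

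The difference between the libraries varied with the GC content of the exons. Among the 14 members under 44% GC the median log2 ratio was -0.23, and among the 10 members at 56% or more it was 0.80, with 4 of 14 and 10 of 10 above 0. Over all genes tested the medians ran the same way, from -0.40 to 0.39 over those classes. In each of the 5 GC classes the members' median lay above that of all genes. GC content and the log2 ratio correlated at Pearson r = 0.67 and Spearman rho = 0.69 over the 77 members, and at 0.47 and 0.59 over 16048 genes, as a description of genes that share 2 libraries. After a smoothed correction for GC, the members' median was 0.22, with 59 of 77 above 0, against 7948 of 16145 genes tested. Among the members, Mrpl52 alone was called. Mrpl34, with 58.3% GC, then had a log2 ratio of 0.94, just under the limit.

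**Figure D4:**
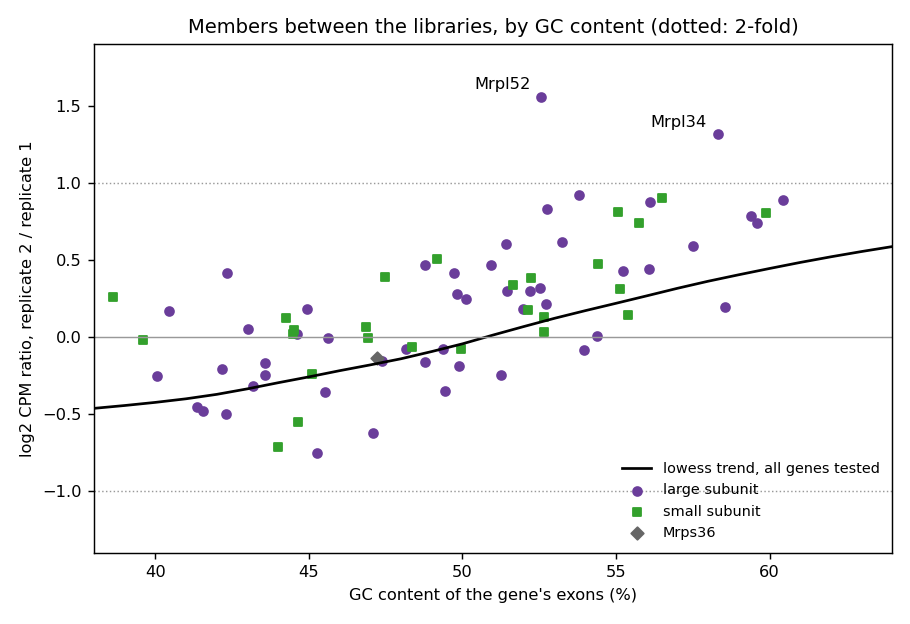
Log2 ratio of CPM, replicate 2 over replicate 1, against GC content of the exons in percent, for large-subunit (circles) and small-subunit (squares) members and Mrps36 (diamond). The curve is the smoothed trend over all genes tested, and dotted lines mark a 2-fold difference. Members follow the curve and lie mostly above it, and only Mrpl52 and Mrpl34 pass the upper line.

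By median, the levels of the members lay between those of the machinery that assembles and serves the ribosome and those of the complexes it helps to build. The 5 ribosome proteins with other symbols had medians of 31.7 and 35.0 TPM. Among them Aurkaip1 measured 37.1 and 66.4 TPM, and Dap3, a GTP-binding protein of the small subunit, 34.1 and 35.0 TPM. Gadd45gip1, a large-subunit protein, was called 2.14-fold higher in replicate 2, with 666 and 1700 counts, but not after the GC correction. The 26 genes of ribosome assembly and ribosomal RNA modification had medians of 8.48 and 8.81 TPM, led by Mterf3 (39.9 and 68.9 TPM) and Mtg1, a GTPase of large-subunit assembly (22.4 and 24.1 TPM). The counts of Mterf3, 653 and 673, were 0.863 of replicate 1 in replicate 2 after scaling, so its TPM and its counts moved in opposite directions. The 14 translation factors had medians of 15.4 and 16.1 TPM, led by the elongation factor Tufm at 117 and 150 TPM and the membrane insertase Oxa1l at 64.2 and 86.8 TPM.

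The 20 genes that charge mitochondrial tRNAs had medians of 7.03 and 9.76 TPM, and the members' medians were 3.27 and 2.90 times theirs. Lars2, the leucyl-tRNA synthetase, stood far above the others of that list at 518 and 463 TPM, followed by Fars2 at 25.7 TPM in both. The 12 genes of mitochondrial transcription and RNA stability had medians of 9.58 and 9.63 TPM, led by Hsd17b10 at 56.5 and 70.1 TPM and Polrmt, the mitochondrial RNA polymerase, at 16.4 and 27.5 TPM. No gene of the assembly, translation factor, tRNA charging or transcription lists was called between the libraries. The 9 transcription regulators had medians of 5.69 and 5.62 TPM, led by Esrra at 51.2 and 70.9 TPM and Ppargc1a at 19 and 20.4 TPM, and none was called.

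The products of mitochondrial translation join nuclear-encoded subunits, which were far more abundant as transcripts. The 35 nuclear subunits of complex I had medians of 215 and 293 TPM, 9.34 and 10.4 times the members' medians. They were led by Ndufb8 at 1066 and 1282 TPM and Ndufa3 at 670 and 1382 TPM. Ndufs7 was called 2.14-fold higher in replicate 2, but not after the GC correction. With that correction 1 other complex I gene was called higher. The 15 nuclear subunits of ATP synthase had medians of 402 and 608 TPM, 17.5 and 21.5 times the members' medians. They were led by Atp5b at 3299 and 4299 TPM and Atp5a1 at 3115 and 3122 TPM, and Atp5d was called 2.27-fold higher in replicate 2, but not after the GC correction.

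The 80 cytosolic ribosomal protein genes had medians of 116 and 152 TPM, 5.04 and 5.39 times the members' medians. They were led by Rplp1 at 892 and 2270 TPM and Rps2 at 819 and 1206 TPM. Of the 78 tested, 5 were called higher in replicate 2, namely Rplp1, Rpl28, Rpl36, Rps28 and Rps27. After the GC correction Rplp1 and Rpl36 were no longer called. The number called higher was still 5, since other genes of the list were then called. Many cytosolic ribosomal protein genes have processed pseudogenes, and their levels carry that uncertainty.

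The 13 protein genes of mitochondrial DNA, which are the messages these ribosomes translate, had medians of 16528 and 12184 TPM. They were led by mt-Atp8 at 152305 and 63798 TPM and mt-Co1 at 115908 and 86276 TPM, with mt-Atp8 first in replicate 1 and mt-Co1 in replicate 2. Effective length fell short of annotated length by a median of 204.4 and 196.9 nucleotides, so TPM of very short genes divides by few bases. How far this bears on mt-Atp8 was not tested, and the TPM shares of mitochondrial DNA genes include it. Of the 13, mt-Nd6 alone was called, 3.21-fold higher in replicate 1. The ribosomal RNAs of the same ribosome, mt-Rnr1 and mt-Rnr2, were 2.01- and 2.09-fold higher in replicate 1, and neither was called after the GC correction. Over the 13 protein genes the median log2 ratio was -0.56 before that correction and -0.06 after it, and mt-Nd6 was still called. The summed TPM of the members was 0.246 and 0.237 of that of complex I, so this ratio was nearly the same in both libraries while the share of mitochondrial DNA transcripts was not.

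**Figure D5:**
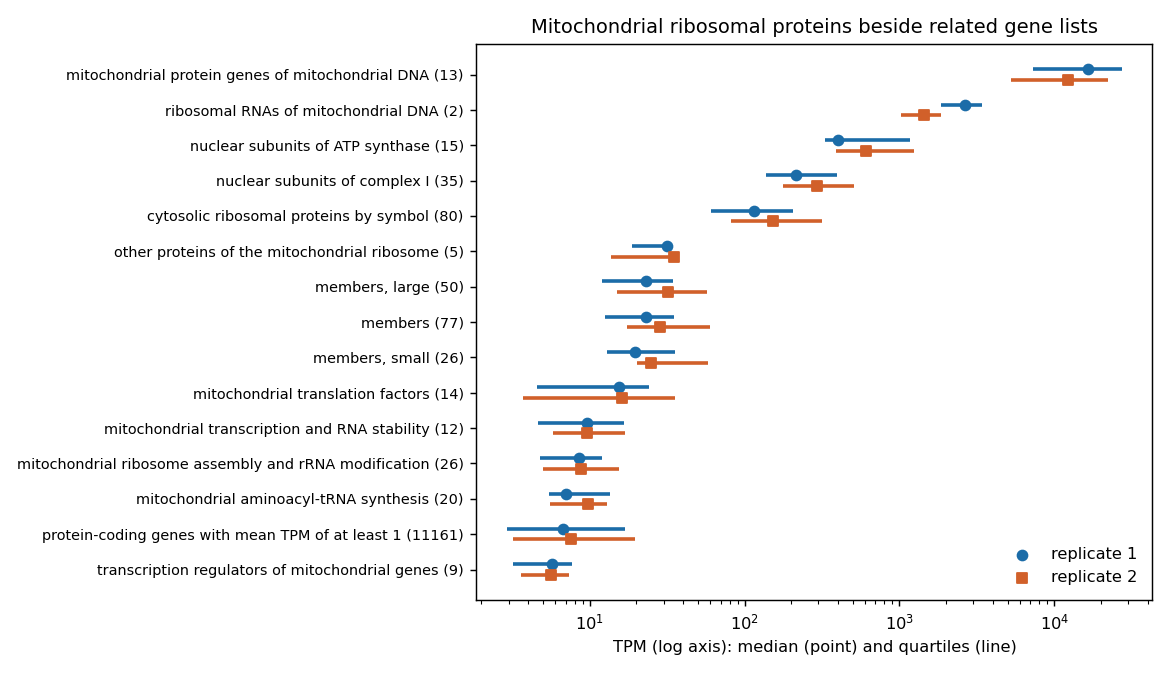
Median (points) and quartiles (lines) of TPM on a log axis for the members and related gene lists, with the number of genes in brackets, in replicate 1 (blue circles) and replicate 2 (orange squares). The members, at 23 and 28.3 TPM, lie above the assembly and tRNA charging genes and below the nuclear subunits of complex I, at 215 and 293 TPM.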

How the data were processed

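Poly(A) RNA-seq of mouse heart was analysed from 2 libraries of 1 group, from the tables of genes and of transcripts that the authors deposited, on mm10 and GENCODE M4 according to their readme notes. No source used here names the aligner or quantification program. Expected counts, per the file headers, estimate the fragments of each gene or transcript and were rounded to whole numbers for tests. The deposited TPM and FPKM values are per effective length, per the file headers. FPKM served only as an alternative. Symbols, types and GC content came from M21, which matched 98.0% of gene identifiers, and 99.4% of tested genes had a GC value. Library sizes were scaled by TMM (edgeR 4.0.16), with factors 0.957 and 1.04. Genes with at least 20 counts in both libraries together were tested by a two-sided exact binomial test (SciPy 1.17.1) with Benjamini-Hochberg adjustment over all 16145. With 1 library on each side edgeR's quasi-likelihood test has no residual degrees of freedom, and p-values measure counting error only. Ratios used CPM + 0.5, subunit levels log2(TPM + 1), and the GC correction a lowess fit of fraction 0.3 (statsmodels 0.14.6). DESeq2 1.42.0 gave alternative size factors, and blastn 2.17.0 matched pseudogenes. The test was checked on simulated data. Genes named are the 6 highest and 4 lowest of each subunit by mean TPM, members called, members whose leading transcript differed or whose coding share was under 50%, members with known roles, and in other lists the 2 highest and those called where at most 5 were. No member had a posterior SD above 10% of its count in the deposited tables. The members and lists were chosen with earlier results of these data known. A further 2 deposited files on another build were not used here.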

Additional observations from a re-analysis of the deposited data

How the results depend on the processing

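The difference in median log2(TPM + 1) between large and small subunit kept its direction in every alternative run. Its mean over the libraries lay between 0.22 and 0.36 in all but 1, but single libraries varied more. It was 0.11 in replicate 1 and 0.55 in replicate 2 for members of at least 10 TPM by mean. With subunits taken from the symbol it was 0.12 and 0.32. It was 0.24 and 0.34 with either library left out. Without the 12 members whose coding share was under 50%, an alternative chosen after seeing the data, it was 0.14, and with Mrpl23 joined to its pseudogene, also chosen then, 0.36. The number of members called higher in replicate 2 was 2 as reported, 6 with unscaled total counts, 1 with GC correction, 8 with the TPM ratio as the fold, 15 at a fold limit of 1.5, 42 with no fold limit and 0 with edgeR's exact test at a common dispersion. The number called lower was 3 at a fold limit of 1.5 and 21 with no fold limit. The genes called under total counts added Mrpl4, Mrpl53, Mrpl54 and Mrps12. Total counts called 9.92% of all genes higher and the TPM ratio 9.84%. The dispersion of the edgeR test was estimated from the same 2 libraries and so holds the difference under test. Over all genes, calls higher and lower were 1325 and 576 as reported, 1139 and 359 with GC correction, 2436 and 1977 at a fold limit of 1.5, 5313 and 5628 with none, and 336 and 73 with the edgeR test. Total counts and the TPM ratio moved the median of all genes from -0.01 to 0.09. The large-subunit median was then 0.35 by TPM ratio. The small-subunit median was 0.26 by total counts, 0.29 with GC correction and 0.36 by TPM ratio. The cause of these shifts was not tested. No paired analysis was possible because there is 1 group. Depth was not limiting for any member, since the least covered had 188.63 counts, but 2 libraries cannot show a difference between subunits by an exact sign test.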
